A study of Mus musculus with 29 samples.

Results

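The neural basic helix-loop-helix (bHLH) factors of the mouse retina were examined across sorted bipolar cells and photoreceptors. The set was 9 of the 24062 genes in the RNA-seq table, taken by name: the tissue-restricted factors *Neurod1*, *Neurod2*, *Neurod4*, *Neurod6*, *Bhlhe22* and *Bhlhe23*, and the E protein genes *Tcf3*, *Tcf4* and *Tcf12*. Of the 9, 8 had enough reads to be tested. *Neurod6* did not. The accessible chromatin regions nearest to the start sites of the 9 genes numbered 111 of 110715.

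Proteins of the bHLH family bind DNA as dimers at short palindromic motifs called E-boxes. A tissue-restricted member such as NEUROD1 usually pairs with a broadly expressed E protein encoded by *Tcf3*, *Tcf4* or *Tcf12*, and ID proteins, which lack a DNA-binding region, hold E proteins in inactive pairs. In the retina such factors are known for specifying and maintaining neurons: NEUROD1 in photoreceptors, NEUROD4 together with other factors in bipolar cells, and the repressors BHLHE22 and BHLHE23 in cone OFF bipolar cells and rod bipolar cells, respectively.

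Expression was measured in 15 RNA-seq libraries, 3 for each of 5 populations. Bipolar cells (BC) came from heterozygous *Otx2*-GFP+/- mice at postnatal day 42 to 48, in which GFP sits in the *Otx2* gene, an allele that every bipolar library carries and no photoreceptor library is labelled with. All bipolar cells (pan-BC) were sorted from *Otx2*-GFP+/- mice without a second reporter. ON-BC and OFF-BC were sorted from *Otx2*-GFP+/-; *Grm6*-YFP+/+ mice, in which the promoter of the ON-BC glutamate receptor gene *Grm6* drives YFP. ON-BC were sorted once, and OFF-BC, which are defined by the lack of YFP, were double-sorted. Rods came from *Nrl*-eGFP mice and blue cones from *Nrl*-eGFP;*Nrl*KO mice, in which photoreceptors lacking the rod factor NRL take on a blue cone identity, so that these cells are a surrogate. Both were sorted at day 56 in an earlier study. Class, study and age therefore cannot be told apart between bipolar cells and photoreceptors. Accessibility was measured by ATAC-seq in 12 libraries, 2 for each of the same populations and for green cones of *Opn1mw*-GFP mice, with peak calls alone from 2 more libraries of double-sorted green cones. All green cone libraries were likewise from day 56 and from the earlier study. The labels give the ATAC-seq pan-BC mice as *Otx2*-GFP+/-; *Grm6*-YFP+/+, whereas a supplement of the study lists them otherwise.

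Counted reads were 12329548 to 26266746 per RNA-seq library and 4176776 to 12345845 per ATAC-seq library. The populations carried their defining markers. The summed level of 7 rod markers in the bipolar libraries was 0.169 to 1.98% of the rod mean, and that of 7 cone markers was 0.323 to 6.58% of the blue cone mean, highest in OFF-BC replicate 3. ON markers in OFF-BC reached 6.8 to 11.7% of the pan-BC mean, and OFF markers in ON-BC 11.2 to 14.6%. The mean sum of the OFF markers was 1532 in ON-BC, 11550.4 in pan-BC and 57350.4 in OFF-BC. Of the 6 OFF markers, *Vsx1* went the other way, with its ON-BC mean at 339% of its OFF-BC mean. In these bulk samples fewer cells of a type and less RNA per cell cannot be told apart.

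Levels are given as normalised read counts, the authors' counts divided by a size factor for each library. Differences were tested with limma against a 2-fold threshold on log2(normalised read count + 1), with p-values adjusted over all 14024 genes tested. On this scale the change of genes with few reads is understated. Between pan-BC and rods, 6 of the 8 tested bHLH genes differed, beside 43.6% of all genes tested, and between pan-BC and blue cones 6 of 8 differed, beside 36.3%. Between ON-BC and OFF-BC, 3 of 8 differed, beside 6.55%. Between rods and blue cones 1 of 8 differed, beside 15.9%. Libraries without overlap between 2 populations were common. They were seen for 74.8 to 83.7% of all genes tested between a bipolar and a photoreceptor population. The share was 27.2 to 42.2% between 2 bipolar populations and 60.9% between rods and blue cones. The median log2 difference of the 8 was 4.64 for pan-BC minus rods and 4.11 for pan-BC minus blue cones, where the median over all genes tested was 0.21 and 0.16. *Neurod2*, *Bhlhe22* and *Bhlhe23* had 7, 4 and 22 reads over the rod libraries and 4, 2 and 23 over the blue cone libraries. They had enough reads to be tested only through the bipolar libraries. Their direction was therefore fixed by that choice, and they count in the 6 of 8 and in both medians. Pan-BC was the higher side for 63.8% of all genes that differed from rods and 62.4% of those that differed from blue cones, and with libraries scaled to their totals alone these shares were 74% and 71.7% and the medians 0.55 and 0.44.

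**Figure D1:**
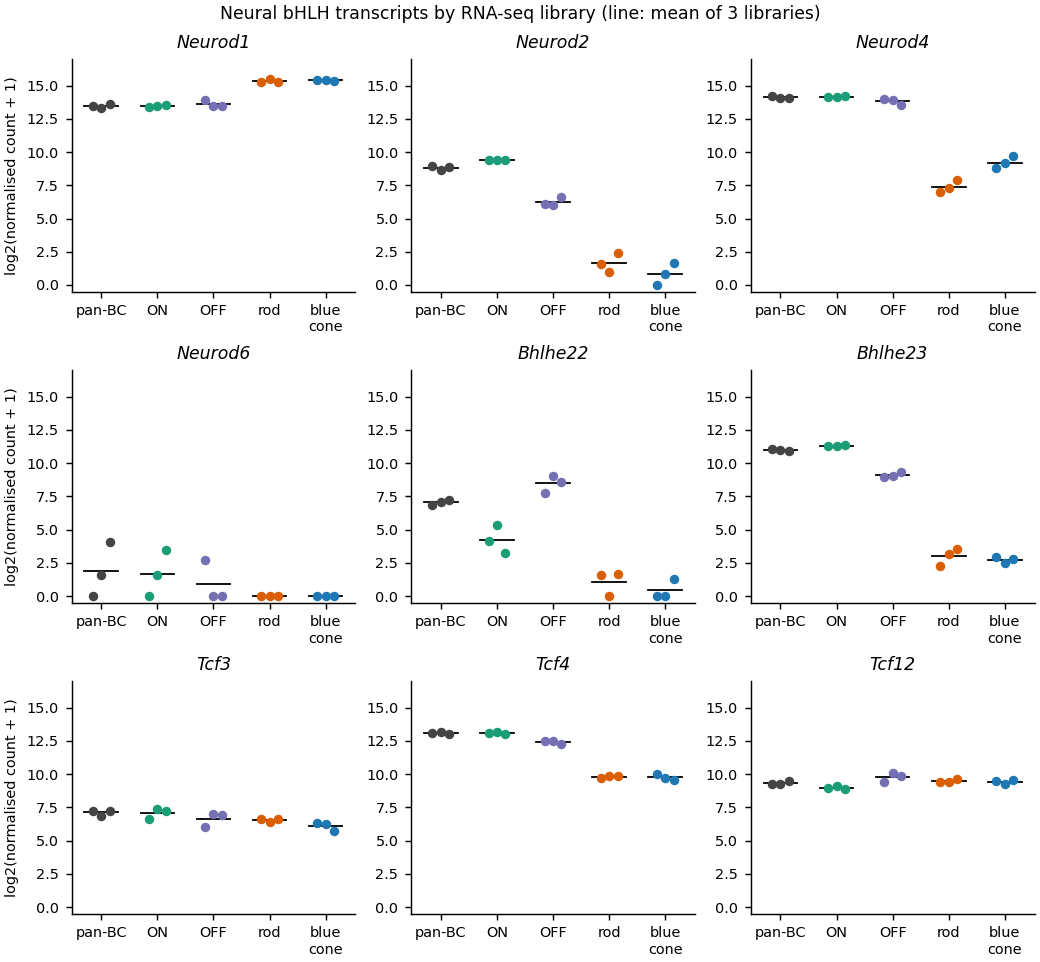
Normalised read counts of the 9 bHLH genes in each RNA-seq library, as log2(count + 1) on the vertical axis, by population on the horizontal axis (points, 3 libraries each; line, mean of the log2 values). *Neurod1* is high in all 15 libraries, *Neurod2*, *Neurod4*, *Bhlhe22*, *Bhlhe23* and *Tcf4* are higher in the 3 bipolar populations than in rods and blue cones, and *Tcf12* lies within a narrow band.

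**Figure D2:**
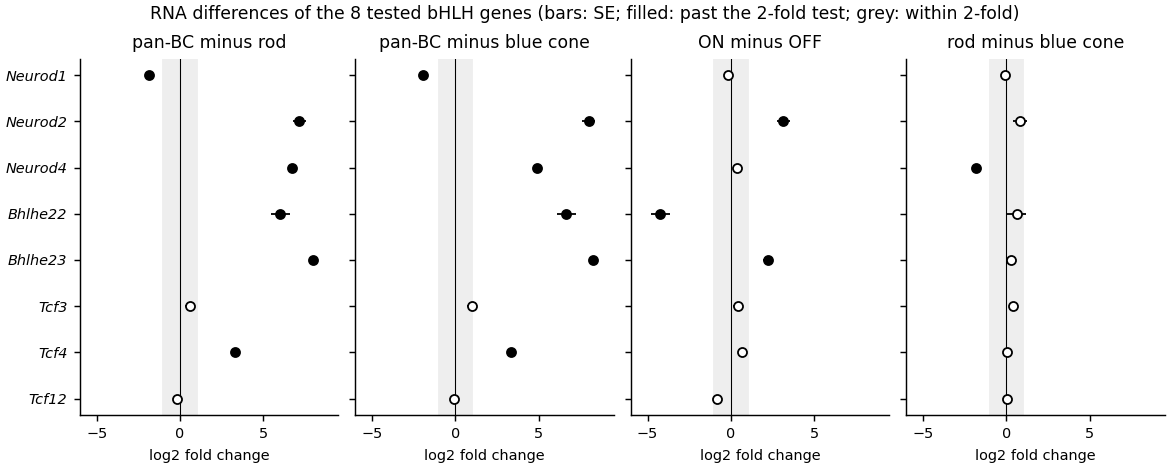
Log2 difference in RNA for the 8 tested bHLH genes in 4 comparisons (points, with standard errors from limma; filled points passed the 2-fold test; the grey band spans a 2-fold change either way). The filled points are 6, 6, 3 and 1 of 8 from left to right, and *Neurod1* is the filled gene on the photoreceptor side in the first 2 panels.

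*Neurod1* was the most abundant of the set in photoreceptors and was also high in bipolar cells. Its gene (GRCm38, chromosome 2, 79452637 to 79456636, minus strand) encodes a factor required for photoreceptor survival. Normalised read counts were 39999, 45278 and 40565 in rods and 44653, 44748 and 41045 in blue cones. They were 11588, 10397 and 12596 for pan-BC, 10504, 11288 and 12120.4 for ON-BC and 15763, 11194 and 11313 for OFF-BC. Every photoreceptor library exceeded every bipolar library, while the ranges of the 3 bipolar populations overlapped, as did those of rods and blue cones. Pan-BC fell by 1.87 on the log2 scale against rods (SE 0.15, n = 3 each, limma adjusted p = 5.13e-05) and by 1.92 against blue cones (SE 0.15, limma adjusted p = 3.89e-05). Per kilobase of exon, *Neurod1* ranked 29th of 22511 genes in rods and 36th in blue cones, and between 218th and 242nd in the 3 bipolar populations.

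The bipolar *Neurod1* level was 24.8 to 37.6% of the rod mean. That of the 7 rod markers in the same libraries was 0.169 to 1.98% of the rod mean. In ON-BC, where the cone markers stood at 0.323 to 0.372% of the blue cone mean, *Neurod1* stood at 24.2 to 27.9% of it. The OFF-BC library with the highest *Neurod1* was replicate 1, in which the 7 cone markers summed to 34673. In OFF-BC replicate 3 they summed to 103966. The part of photoreceptor RNA in the bipolar *Neurod1* level was not tested. ON-BC and OFF-BC did not differ past the threshold (-0.16 ± 0.15, limma adjusted p = 1), and without OFF-BC replicate 1 the difference was 0.00.

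At the *Neurod1* locus, the promoter was open in every population, and a region beyond the 3′ end was more open in photoreceptors. These 2 regions are printed below, read along the gene's strand from GRCm38.p6, with the E-box CATATG in capitals. E-boxes have the general form CANNTG, of which 3 hexamers were searched here (listed with the motif counts), so other E-boxes are not marked. The first, at -165 bases from the start site (79456701 to 79456901), lies upstream of the transcript, and the second, at +8656 (79447880 to 79448080), is intergenic. The second holds none of the motifs searched.
Neurod1 region at -165: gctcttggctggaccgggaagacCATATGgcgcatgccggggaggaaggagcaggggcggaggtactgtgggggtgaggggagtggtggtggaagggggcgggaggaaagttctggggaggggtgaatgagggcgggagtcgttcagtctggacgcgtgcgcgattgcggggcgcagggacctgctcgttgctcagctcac
Neurod1 region at +8656: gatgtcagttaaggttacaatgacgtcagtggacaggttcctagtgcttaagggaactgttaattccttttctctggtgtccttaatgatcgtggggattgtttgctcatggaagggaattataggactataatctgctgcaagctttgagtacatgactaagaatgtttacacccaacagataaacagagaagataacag
The promoter region counted 460.1 and 607.2 for pan-BC, 533.0 and 524.2 for ON-BC, 530.8 and 472.1 for OFF-BC, 556.0 and 539.4 for rods, 392.4 and 391.0 for blue cones and 402.6 and 384.5 for green cones. The libraries of rods lay within the range of pan-BC, with a log2 difference of -0.05 ± 0.14 (limma adjusted p = 1). The downstream region counted 27.2 and 26.2 for pan-BC, 5.97 and 16.1 for ON-BC and 14.8 and 11.7 for OFF-BC. It counted 215.7 and 227.7 for rods, 107.5 and 133.0 for blue cones and 121.4 and 125.3 for green cones. All 6 photoreceptor libraries were above all 6 bipolar libraries, and pan-BC fell by 3.01 against rods (SE 0.36, limma adjusted p = 7.93e-05) and by 2.12 against blue cones (limma adjusted p = 0.0113). A region in the intron at +1176 went the other way, with 105.6 and 118 in pan-BC against 29.6 and 28.5 in rods (1.91 ± 0.29, limma adjusted p = 0.00625).

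*Neurod4* was the bipolar counterpart. It encodes a factor that acts with other proteins in bipolar development (chromosome 10, 130268152 to 130280254, minus strand). Normalised read counts were 19301, 16828 and 17367 for pan-BC, 17981, 18445 and 19287 for ON-BC and 16052, 15159.6 and 12181 for OFF-BC. They were 127.1, 154.7 and 244.2 in rods and 445.2, 565.3 and 831.9 in blue cones. All bipolar libraries were far above all photoreceptor libraries, and every blue cone library was above every rod library. OFF-BC lay below the other 2 bipolar populations with no overlap, but ON-BC and OFF-BC did not differ past the threshold (0.37 ± 0.22, limma adjusted p = 1).

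Pan-BC exceeded rods by 6.71 ± 0.22 (log2, limma adjusted p = 3.54e-13) and blue cones by 4.90 ± 0.22 (limma adjusted p = 1.13e-10). *Neurod4* was also the 1 member that separated the photoreceptors, at -1.81 ± 0.22 for rods minus blue cones (limma adjusted p = 0.00668). Fitted on these 6 libraries alone the difference was the same and the adjusted p was 0.157. Bipolar markers stood beside it as follows. *Neurod4* in blue cones was 3.44% of its pan-BC mean, *Trpm1* 0.54% and *Pcp2* 0.3%, while *Cabp5* stood at 71.2% and *Car8* at 41.4%. In rods the values were 0.983% for *Neurod4*, 0.274% for *Trpm1* and 0.718% for *Cabp5*. The part of bipolar RNA in these levels was not tested.

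Each of the 7 regions nearest to *Neurod4* was more open in pan-BC than in rods, where 40.3% of all regions tested were more open in pan-BC and 11.2% less. The rod libraries counted at most 9.49 at any of the 7. Only other libraries gave these regions enough reads to be tested, so their direction against rods was fixed. A few are shown here because they carried its differences: the intronic region at +4172 (130275866 to 130276066), which differed most from rods, the intergenic region at +20428 (130259610 to 130259810), which differed most from blue cones, and the intergenic region at -3151 (130283305 to 130283505), the only one of the 7 that differed between ON-BC and OFF-BC. Capitals mark a TAATTA homeodomain motif in the first, the E-boxes CAGATG and, also in 2 copies, CAGCTG in the second, and the E-box CATATG in the third.
Neurod4 region at +4172: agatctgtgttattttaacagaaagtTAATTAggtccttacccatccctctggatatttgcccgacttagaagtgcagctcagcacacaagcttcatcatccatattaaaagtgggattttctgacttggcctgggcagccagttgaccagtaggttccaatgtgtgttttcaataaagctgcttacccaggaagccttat
Neurod4 region at +20428: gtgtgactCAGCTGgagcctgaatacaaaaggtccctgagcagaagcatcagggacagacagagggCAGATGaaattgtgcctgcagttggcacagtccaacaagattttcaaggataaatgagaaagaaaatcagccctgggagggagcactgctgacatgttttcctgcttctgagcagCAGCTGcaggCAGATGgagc
Neurod4 region at -3151: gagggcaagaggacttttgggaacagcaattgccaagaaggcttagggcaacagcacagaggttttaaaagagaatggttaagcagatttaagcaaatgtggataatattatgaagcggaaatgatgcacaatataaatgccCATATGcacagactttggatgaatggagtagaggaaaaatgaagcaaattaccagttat
The region at +4172 counted 77.6 and 65.6 for pan-BC, 107.5 and 89.3 for ON-BC, 53.9 and 38.9 for OFF-BC, 0 and 1.36 for rods, 11.7 and 2.89 for blue cones and 10.8 and 2.82 for green cones. Pan-BC exceeded rods by 5.56 ± 0.65 (log2, limma adjusted p = 7.34e-06). The region at +20428 counted 26.4 and 27.9 in pan-BC, and at most 1.45 in rods and blue cones (4.17 ± 0.70 against blue cones, limma adjusted p = 0.000828). OFF-BC stood at 40.4 and 40.9 and ON-BC at 26.9 and 36.6, a difference that did not pass the 2-fold test (-0.36 ± 0.70).

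The region at -3151 counted 26.9 and 64.4 in ON-BC and 2.69 and 1.95 in OFF-BC, a difference of 3.69 ± 0.76 (limma adjusted p = 0.0229), although the RNA of the 2 populations was close. The promoter region at -40, which overlaps an exon, counted 124.9 to 138.4 in pan-BC and 5.42 to 6.23 in rods (4.28 ± 0.41, limma adjusted p = 2.1e-06). Upstream, the region at -1966 counted 19.4 and 15.9 for blue cones, 15.2 and 10.3 for pan-BC and 1.56 and 0 for rods, and rods fell by 3.54 against blue cones (limma adjusted p = 0.00634), on the same side as the RNA.

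*Neurod2* and *Bhlhe23* were bipolar genes with their higher level in ON-BC. *Neurod2* encodes a neuronal differentiation factor best known from the cortex (chromosome 11, 98325417 to 98329645, minus strand). Normalised read counts of *Neurod2* were 665.5, 683.9 and 673.1 for ON-BC, 484.0, 408.6 and 467.4 for pan-BC and 67.1, 64.9 and 98.2 for OFF-BC. They were at most 4.32 in rods and 2.22 in blue cones. The 3 bipolar populations did not overlap, with ON-BC above pan-BC above OFF-BC. ON-BC exceeded OFF-BC by 3.14 ± 0.40 (log2, limma adjusted p = 0.000913), and pan-BC exceeded rods by 7.16 ± 0.40 (limma adjusted p = 3.5e-10). The direction against rods was fixed, because *Neurod2* had enough reads to be tested only through the bipolar libraries.

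*Bhlhe23* encodes a repressor found in rod bipolar cells, an ON type (chromosome 2, 180774381 to 180776900, minus strand). Its normalised read counts were 2463, 2448 and 2625 for ON-BC, 2113, 2007 and 1959 for pan-BC, 494.0, 513.0 and 646.6 for OFF-BC, 3.88, 8.19 and 10.8 for rods and 6.77, 4.55 and 5.92 for blue cones. The bipolar populations again fell in the order ON-BC, pan-BC, OFF-BC without overlap, and rods and blue cones overlapped. ON-BC exceeded OFF-BC by 2.20 ± 0.25 (limma adjusted p = 0.00252), and pan-BC exceeded rods by 7.97 ± 0.25 (limma adjusted p = 2.35e-13). As for *Neurod2*, the direction against rods was fixed, because only the bipolar libraries gave *Bhlhe23* enough reads to be tested.

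Neither gene was absent from OFF-BC. *Bhlhe23* in OFF-BC was 19.7 to 25.7% of its ON-BC mean and *Neurod2* 9.62 to 14.6%, where *Grm6* was 0.481 to 4.39%, *Isl1* 0.618 to 5.06% and *Prkca* 0.802 to 6.47%. These 3 of the 7 ON markers thus stood lower in the same libraries than either bHLH gene. The ON marker *Trpm1* and the general bipolar marker *Pcp2*, at 12.5% and 18.5% of their pan-BC means, stood near *Neurod2*, at 16.9% of its own. Among the 7 ON markers, 5 were higher in ON-BC than in OFF-BC past the threshold and 2 were not. The part of ON-BC carried into the OFF-BC sort was not tested.

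Both promoter regions were more open in pan-BC than in either photoreceptor population. Neither exceeded 4.67 in any rod or blue cone library. Each had enough reads to be tested only through other libraries, so this direction was fixed. The 200 bases before the start site of *Neurod2* are shown because, of the 7 genes whose RefSeq promoters were read, this was the 1 with any of the 3 hexamers searched, namely CAGATG and, nearer to the start site, also CATATG. For *Bhlhe23*, the intergenic region at +11666 (180765134 to 180765334) is shown, which differed most from rods. It carries a CAGATG box, a nearby CAGCTG box and a TAATCC motif, the core bound by OTX2 and CRX.
Neurod2 promoter: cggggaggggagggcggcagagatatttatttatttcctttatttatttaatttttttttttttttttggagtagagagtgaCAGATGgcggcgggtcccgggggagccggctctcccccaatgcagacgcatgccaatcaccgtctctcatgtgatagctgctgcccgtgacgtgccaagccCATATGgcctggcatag
Bhlhe23 region at +11666: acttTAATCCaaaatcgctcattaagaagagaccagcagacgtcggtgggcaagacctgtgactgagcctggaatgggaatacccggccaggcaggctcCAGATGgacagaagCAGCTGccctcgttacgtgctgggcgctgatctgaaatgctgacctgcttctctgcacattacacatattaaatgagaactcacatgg
The *Neurod2* promoter region at -55 counted 27.2 and 28.5 for pan-BC, 44.8 and 11.7 for ON-BC, 2.69 and 3.89 for OFF-BC, 1.56 and 4.07 for rods and 0 and 2.89 for blue cones. Both OFF-BC libraries lay with the photoreceptors and below both ON-BC libraries, but at these low counts the ON-BC minus OFF-BC difference of 2.50 ± 0.91 did not pass (limma adjusted p = 0.345). Pan-BC passed against rods (3.0 ± 0.91, limma adjusted p = 0.0402) and blue cones (3.87 ± 0.91, limma adjusted p = 0.00996). An intergenic region at +13800 went the other way, at 56.8 and 58.3 in rods against 6.4 and 3.42 in pan-BC, and pan-BC fell by 3.36 (limma adjusted p = 0.000186).

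The *Bhlhe23* region at +11666 counted 104.0 and 95.2 for pan-BC, 88.1 and 99.6 for ON-BC, 31 and 53.5 for OFF-BC, 0 and 2.03 for rods and 2.59 and 0.723 for blue cones. Pan-BC exceeded rods by 5.85 ± 0.62 (limma adjusted p = 2.47e-06) and blue cones by 5.34 ± 0.62. This region, too, could be tested only through other libraries than those of rods and blue cones, so its direction was fixed. The promoter region at -32 counted 82.4 and 57 for pan-BC, 86.6 and 99.6 for ON-BC, 17.5 and 38.9 for OFF-BC and at most 4.67 for rods (3.92 ± 0.52, limma adjusted p = 7.28e-05). OFF-BC lay below ON-BC at both regions, and neither difference passed the test (1.18 ± 0.62 and 1.79 ± 0.52). A region at -48793 was open everywhere and most open in rods, with 567.7 and 602.4 for rods against 80.8 and 69 for pan-BC, a fall by 2.95 for pan-BC (limma adjusted p = 5.09e-07).

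*Bhlhe22*, which encodes a repressor needed for type 2 cone OFF bipolar cells, had the opposite polarity (chromosome 3, 18054325 to 18057514, plus strand). Normalised read counts were 217.9, 523.8 and 390.6 for OFF-BC, 117.0, 136.2 and 151.7 for pan-BC and 16.5, 39.2 and 8.21 for ON-BC. The 3 populations did not overlap, although OFF-BC spread over a coefficient of variation of 40.6%. ON-BC fell by 4.25 against OFF-BC (SE 0.57, limma adjusted p = 0.000526). Rods had 4 reads and blue cones 2 reads over their 3 libraries, against 369 in pan-BC, so the pan-BC to blue cone ratio was 268.4 with an exact 95% counting interval of 73.8 to 2224. Pan-BC exceeded rods by 6.01 ± 0.57 (limma adjusted p = 4.57e-07). Only the bipolar libraries gave *Bhlhe22* enough reads to be tested, so the direction of this difference and of the ratio was fixed.

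At the 2 regions nearest to *Bhlhe22*, neither of them a promoter region, accessibility did not follow the RNA between the polarities. Its 2 regions counted 53.8 and 76.1 (at -4540) and 59.7 and 38.1 (at +1369) in ON-BC, against 18.9 and 17.5 and 13.5 and 28.2 in OFF-BC. Both were higher in every ON-BC library, the population with the lower RNA, and neither difference passed the test (1.76 ± 0.68 and 1.24 ± 0.85). In the promoter, a peak was called in OFF-BC replicate 2, with 3.61-fold enrichment, and in neither ON-BC library. Pan-BC exceeded rods at both regions, by 5.04 ± 0.68 (limma adjusted p = 4.21e-05) at the first and 4.89 ± 0.85 (limma adjusted p = 0.000412) at the second. The rod libraries counted at most 2.03 there. Both regions could be tested only through other libraries, so their direction against rods was fixed.

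The pan-BC sort fell between its 2 parts for each of the 3 polarity genes. On the linear scale, the pan-BC mean lay 63% of the way from OFF-BC to ON-BC for *Neurod2*, 68.1% for *Bhlhe22* and 75.3% for *Bhlhe23*. Pan-BC was a separate sort from other mice, so these values are a description of 3 genes.

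*Neurod6*, which marks a small class of amacrine cells and cortical neurons, was near the limit of detection (chromosome 6, 55677818 to 55681263, minus strand). Summed over 3 libraries, the reads were 15 for pan-BC, 12 for ON-BC and 5 for OFF-BC, with 0 in all 6 photoreceptor libraries. Normalised read counts were 0, 2.02 and 15.9 for pan-BC, 0, 1.96 and 10.3 for ON-BC and 5.59, 0 and 0 for OFF-BC. The reads thus came mostly from a single library of each population, and 4 of the 9 bipolar libraries had none. With a floor of 3 counts over the photoreceptor group, pan-BC was at least 5.3-fold higher than rods and at least 7.3-fold higher than blue cones. Fitted without the filter on low counts, the gene passed no test (1.89 for pan-BC minus rods, limma adjusted p = 0.689).

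Its chromatin was open in bipolar cells. Of the 4 regions nearest to *Neurod6*, all 4 were more open in pan-BC than in rods and than in blue cones. No rod or blue cone library exceeded 9.07 at any of them. These regions had enough reads to be tested only through other libraries, so this direction was fixed by that choice. Of all regions tested, 40.3% were more open in pan-BC than in rods and 28.8% than in blue cones. The region on an exon at +105 counted 75.2 and 81 for pan-BC, 50.8 and 125.9 for ON-BC, 13.5 and 7.79 for OFF-BC, 0 and 4.07 for rods and 2.59 and 1.45 for blue cones. Pan-BC exceeded rods by 5.13 ± 0.82 (limma adjusted p = 0.000178) and blue cones by 4.74 ± 0.82. In pan-BC this region counted more than the *Neurod2* promoter region, whose gene had 1242 reads over the 3 pan-BC RNA-seq libraries. The intergenic region at +31061 (55650102 to 55650302) differed most from rods, with 46.4 and 56.4 in pan-BC and 0 in both rod libraries (5.71 ± 0.68, limma adjusted p = 8.77e-06). It is shown because it holds 4 matches to the hexamers searched, CAGCTG 3 times and CAGATG once, the latter on the other strand as CATCTG, and TAATCC.
Neurod6 region at +31061: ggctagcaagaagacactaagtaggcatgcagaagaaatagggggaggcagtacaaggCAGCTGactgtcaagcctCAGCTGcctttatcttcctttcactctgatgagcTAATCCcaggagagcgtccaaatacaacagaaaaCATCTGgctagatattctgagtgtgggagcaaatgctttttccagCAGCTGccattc

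Of the 3 E protein genes, *Tcf4* was the 1 that passed the 2-fold test, in both comparisons of pan-BC with photoreceptors. Normalised read counts of *Tcf4* were 8628, 9244 and 8345 for pan-BC, 8618, 9044 and 8509 for ON-BC and 5839, 5668 and 5081 for OFF-BC. They were 847.0, 955.7 and 917.5 in rods and 1015, 846.8 and 774.2 in blue cones. Pan-BC and ON-BC overlapped, OFF-BC lay below both, and rods and blue cones lay lowest and overlapped. Pan-BC exceeded rods by 3.27 ± 0.11 (log2, limma adjusted p = 4.31e-12) and blue cones by 3.32 ± 0.11 (limma adjusted p = 1.32e-11).

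*Tcf12* varied within a narrow band (chromosome 9, 71844252 to 72111819, minus strand). Its normalised read counts were 618.0, 608.3 and 702.3 for pan-BC, 504.6, 545.8 and 463.8 for ON-BC and 695.2, 1064 and 932.4 for OFF-BC. They were 686.9, 681.2 and 786.7 in rods and 732.5, 614.6 and 741.6 in blue cones. OFF-BC was above ON-BC in every library, whereas pan-BC overlapped both photoreceptors. Pan-BC minus rods was -0.16 ± 0.14, and 0.19 when libraries were scaled to their totals alone (limma adjusted p = 1 in each).

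*Tcf3*, the gene of E12 and E47, was the lowest of the 3 (chromosome 10, 80409541 to 80433635, minus strand). It counted 153.2, 117.0 and 146.8 for pan-BC, 97, 161.7 and 151.9 for ON-BC, 62.6, 129.8 and 120.3 for OFF-BC, 98, 83 and 96.2 for rods and 79.7, 75.9 and 52.6 for blue cones. Pan-BC was above both photoreceptors in every library, by 0.58 ± 0.29 over rods and 1.01 ± 0.29 over blue cones, neither past the 2-fold threshold (limma adjusted p = 1 and 0.935). Of all genes tested, 83.7% did not overlap between pan-BC and rods and 78.4% between pan-BC and blue cones.

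Tested against no change rather than a 2-fold threshold, 5 of 8 members differed between ON-BC and OFF-BC, beside 27% of all genes tested. *Tcf4* (0.66 ± 0.11, limma adjusted p = 0.000145) and *Tcf12* (-0.81 ± 0.14, limma adjusted p = 0.000367) joined the 3 polarity genes, on opposite sides.

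Per kilobase of exon, the 3 E protein genes summed to 1243 to 1329 for pan-BC, 1219 to 1306 for ON-BC, 866.7 to 970.2 for OFF-BC, 274.2 to 302.3 for rods and 252.9 to 298.8 for blue cones. *Tcf4* made up 85.1 to 88.2% of this sum in pan-BC, 87.8 to 89.3% in ON-BC and 74.1 to 82.5% in OFF-BC, but 38.5 to 43% in rods and 37.6 to 43.1% in blue cones. *Tcf12* was the larger part in photoreceptors, at 47.7 to 51.4% in rods and 48 to 56.1% in blue cones. That order rests on the exon lengths, joined over all transcripts (5061 bases for *Tcf12*, 7887 for *Tcf4*). In normalised read counts *Tcf4* had the higher mean, at 906.7 against 718.3 in rods and 878.8 against 696.3 in blue cones. The shares of the *Neurod* genes per kilobase also shifted between the classes. *Neurod1* made up 45.9 to 50.5% of their sum in pan-BC, 44.9 to 46.7% in ON-BC and 51.7 to 58.7% in OFF-BC, with *Neurod4* nearly all of the rest, and 99.6 to 99.8% in rods and 98.6 to 99.3% in blue cones. The summed *Neurod* level per kilobase was 7912 to 10751 in the bipolar libraries and 16048 to 18169 in the photoreceptor libraries.

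**Figure D3:**
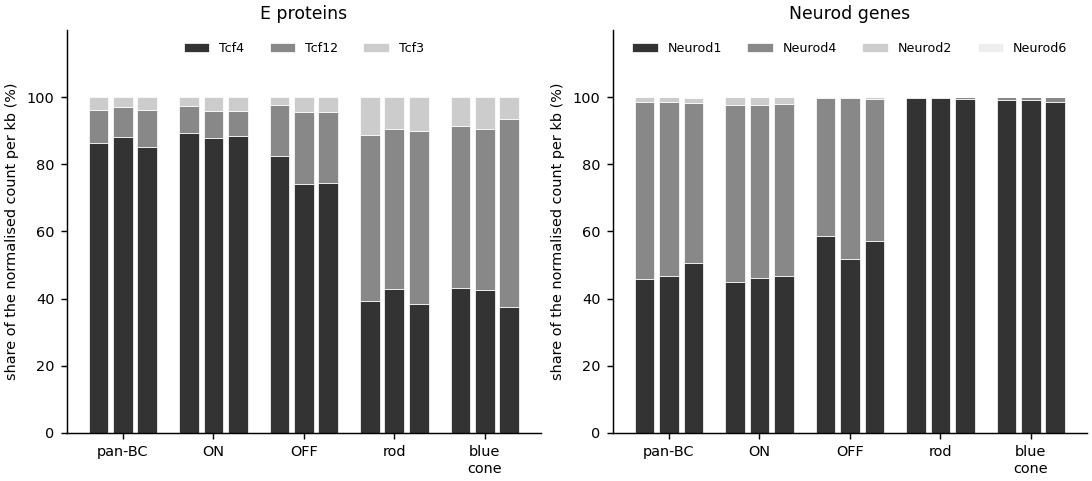
Shares of the normalised read count per kilobase of exon, in percent on the vertical axis, for the 3 E protein genes (left) and the 4 *Neurod* genes (right), with a bar for each RNA-seq library grouped by population. *Tcf4* takes 74.1 to 89.3% of the E protein sum in bipolar libraries and 37.6 to 43.1% in photoreceptor libraries, and *Neurod4* takes 41.1 to 52.8% of the *Neurod* sum in bipolar libraries and at most 1.37% in photoreceptor libraries.

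Chromatin at the E protein promoters was open in all populations. The *Tcf4* promoter region at -56 counted 191.2 and 287.4 for pan-BC, 263.2 and 283.3 for rods and 351.0 and 370.0 for blue cones, and passed the 2-fold test in none of the 4 comparisons. Its distal regions did differ: of 43 regions nearest to *Tcf4*, 25 were more open in pan-BC than in rods and 1 less, beside 40.3% and 11.2% of all regions tested. The most different, in an intron at +171289, counted 106.4 and 111.2 for pan-BC, 103.0 and 134.7 for ON-BC, 16.2 and 18.5 for OFF-BC, 1.56 and 0 for rods and 0 and 0.723 for blue cones (6.10 ± 0.69 against rods, limma adjusted p = 4.23e-06). Being near 0 in rods and blue cones, it could be tested only through other libraries, so its direction was fixed. Between the polarities, the *Tcf4* regions at -8394 (62.7 and 90.8 for ON-BC, 2.69 and 1.95 for OFF-BC) and +10555 were higher in ON-BC, the first by 4.53 ± 0.81 (limma adjusted p = 0.00649) and the second by 3.85 ± 0.79 (limma adjusted p = 0.0198). The region at -152648 was higher in OFF-BC, at 44.5 and 22.4 against 2.99 and 0, and it was open in blue cones (58.3 and 83.1) and green cones (102.2 and 95.8) but not in rods (4.67 and 6.1).

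At *Tcf3*, 3 of 7 regions were less open in pan-BC than in rods and none was more open, beside 11.2% and 40.3% of all regions tested. Its RNA was 0.58 ± 0.29 higher in pan-BC and did not pass the test. The promoter region at -467 (80434002 to 80434202), printed here with its CAGATG in capitals, is the promoter region among these 3.
Tcf3 region at -467: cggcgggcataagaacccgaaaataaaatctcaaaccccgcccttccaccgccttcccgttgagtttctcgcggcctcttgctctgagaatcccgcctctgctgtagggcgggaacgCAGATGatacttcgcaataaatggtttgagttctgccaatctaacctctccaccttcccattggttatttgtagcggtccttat
It counted 243.2 and 207.0 for pan-BC, 204.6 and 171.3 for ON-BC, 198.0 and 261.9 for OFF-BC, 1068 and 1019 for rods, 529.7 and 467.6 for blue cones and 524.8 and 543.6 for green cones. Rods stood above all others, cones in the middle and bipolar cells lowest, and pan-BC fell by 2.21 against rods (SE 0.16, limma adjusted p = 4.64e-06). *Tcf12* RNA passed none of the 2-fold tests. Of its 26 tested regions, 2 were more open in pan-BC than in rods and 5 less, beside 40.3% and 11.2% of all regions tested. The region at +50785, on an exon, counted 370.7 and 396.4 for rods, 16 and 24.5 for pan-BC, 8.96 and 8.78 for ON-BC and 55.2 and 72 for OFF-BC. It differed between pan-BC and rods (-4.21 ± 0.27, limma adjusted p = 2.62e-08) and between ON-BC and OFF-BC (-2.70 ± 0.27, limma adjusted p = 0.000556). The intergenic region at -51794 was higher in ON-BC by 4.07 ± 0.84 (limma adjusted p = 0.0193). None of the 4 *Tcf12* promoter regions passed the 2-fold test in any of the 4 comparisons.

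Over all 9 genes, 58 of the 110 tested regions differed between pan-BC and rods (46 more open in pan-BC, 12 less). Of all 108448 regions tested, 51.6% differed, with 40.3% more open in pan-BC and 11.2% less. Between pan-BC and blue cones 38 differed (31 and 7), beside 35.9% (28.8% and 7.13%). Between ON-BC and OFF-BC 6 differed (4 higher in ON-BC, 2 in OFF-BC), beside 7.39%, and between rods and blue cones 9 differed (1 higher in rods, 8 in blue cones), beside 10%. The shares are near the background in each comparison. For pan-BC minus rods the median log2 difference of the 110 was 1.48, where all regions tested gave 1.16. For pan-BC minus blue cones it was 0.49, where all regions tested gave 0.54. All 7 *Neurod4* regions, all 4 *Neurod6* regions and both *Bhlhe22* regions were among the 46. Regions low in rods, these among them, had enough reads to be tested only through other libraries. Their direction was therefore fixed, and they count in the 46 and in the median. None of the 3 *Neurod2*, 2 *Bhlhe22* or 12 *Bhlhe23* regions differed past the threshold between ON-BC and OFF-BC, whose RNA did.

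**Figure D4:**
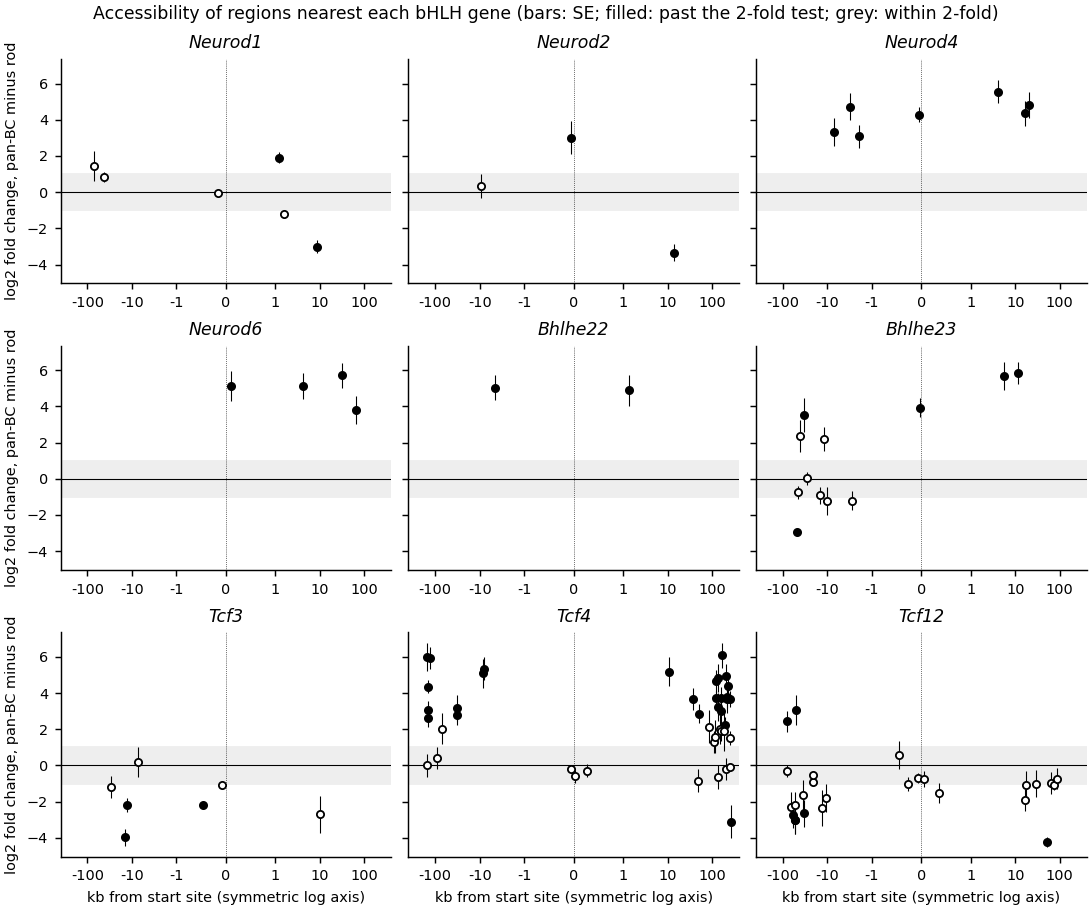
Log2 difference in accessibility, pan-BC minus rods, for the regions nearest to each bHLH gene (vertical axis, points with standard errors from limma), by distance of the region's centre from the start site in kilobases (horizontal axis, symmetric log scale, positive downstream). Filled points passed the 2-fold test, and the grey band spans a 2-fold change. Every region of *Neurod4*, *Neurod6* and *Bhlhe22* lies above the band, and the *Tcf3* and *Tcf12* regions lie mostly below 0.

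**Figure D5:**
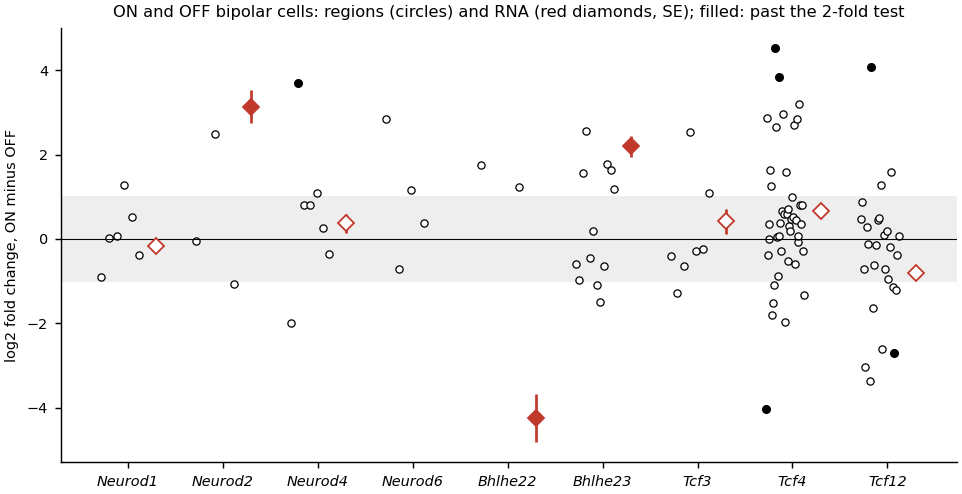
Log2 difference between ON-BC and OFF-BC for the regions nearest to each bHLH gene (circles, ordered by distance) and for its RNA (red diamonds with standard errors), with filled symbols past the 2-fold test. For *Bhlhe22* the RNA lies at -4.25 and both regions lie above 0, at 1.76 and 1.24.

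Peak calls at the promoters, made by the authors in each library alone, were counted beside this. From 1000 bases upstream to 100 downstream of the start sites, a peak overlapped by at least 1 base in 6 of 6 bipolar and 8 of 8 photoreceptor libraries for *Neurod1*, *Tcf3*, *Tcf4* and *Tcf12*. For *Neurod4* there was a peak in 6 bipolar libraries and 1 photoreceptor library. *Bhlhe23* had a peak in 5 bipolar libraries, *Neurod6* in 4, and *Neurod2* and *Bhlhe22* in 3 each, with none in the photoreceptor libraries. The libraries also differed in their total of peaks, which was 54772 to 94468 in bipolar and 29410 to 52066 in photoreceptor libraries. Summit enrichment over the local background was 13.1- to 16-fold in bipolar and 10.8- to 15.2-fold in photoreceptor libraries at *Neurod1*, and 10.3- to 12.4-fold in bipolar libraries at *Neurod4*. At *Bhlhe22* it was 3.4- to 3.61-fold in the 3 bipolar libraries with a peak, which were both pan-BC libraries and OFF-BC replicate 2.

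Both strands were searched for the E-box CAGATG, which reads as CATCTG on the other strand, and for the palindrome CAGCTG and the palindrome CATATG. The homeodomain motif TAATCC and the palindrome TAATTA were added after the data had been seen. None of these motifs contains another. Of the 111 regions, 40.5% held any of the 3 E-boxes, against 38% of all 110715 regions of the same length. The motif CAGATG was in 23.4% against 22.4%, CAGCTG in 18% against 18.1%, CATATG in 6.31% against 3.5%, TAATCC in 19.8% against 21.8% and TAATTA in 8.11% against 5.22%. Of 32851 RefSeq promoters, 23.3% held any of the 3 in the 200 bases before the start site.

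The pathway around these factors was followed in 5 lists. Over all genes tested, 27.8% were higher and 15.8% lower in pan-BC than in rods, 22.7% higher and 13.7% lower for pan-BC against blue cones, and 2.95% higher and 3.6% lower for ON-BC against OFF-BC, beside which the counts of each list can be read. Of the 4 ID inhibitors, 3 were tested, and 1 differed between pan-BC and rods: *Id2* had a mean of 382.9 for pan-BC, 27.7 for rods and 24.2 for blue cones (3.77 ± 0.42 against rods, limma adjusted p = 1.23e-05). *Id2* also separated the polarities, with 361.5 in ON-BC and 27.8 in OFF-BC (3.86 ± 0.42, limma adjusted p = 8.68e-05), on the same side as *Neurod2*, *Bhlhe23* and *Tcf4*.

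Of the 8 *Hes* and *Hey* repressor genes 6 were tested, and pan-BC had 4 higher and 1 lower against rods, beside 27.8% and 15.8% of all genes tested. None passed between ON-BC and OFF-BC. Those named by level were *Hes6*, which lacks the repressor activity of its relatives (527.8 for pan-BC, 100.4 for rods, 347.1 for blue cones), *Hey1* (256.3, 45.8 and 72.7) and *Hey2* (12.8, 108.1 and 81.3). *Hes6* fell by 1.77 in rods against blue cones (limma adjusted p = 0.00303), on the side of *Neurod4*. Of 26 other proneural and tissue-restricted bHLH genes, only 7 had enough reads to be tested, of which 3 were higher and 2 lower in pan-BC than in rods. Of those that differed, *Ascl4* was the 1 that reached a mean of 100 in any population, at 165.1 for rods, 55.1 for blue cones and 28.4 for pan-BC. Of the 2 clock repressors, *Bhlhe40* had a mean of 7152 for pan-BC, 25.3 for rods and 89.5 for blue cones (8.48 ± 0.54 against rods, limma adjusted p = 1.32e-09) and did not differ between ON-BC and OFF-BC. The other, *Bhlhe41*, lay on the other side, with 11581 for pan-BC and 28292 for rods (-1.30 ± 0.20), and did not pass the 2-fold test.

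All 13 partners and cofactors were tested, of which 6 were higher and 2 lower in pan-BC than in rods, 9 higher and 1 lower than in blue cones, and 3 higher and 2 lower in ON-BC than in OFF-BC, where 43.6%, 36.3% and 6.55% of all genes tested differed. Their median log2 difference from rods was 1.32, where all genes tested gave 0.21. The LIM-domain bridging genes split by polarity. *Lmo4* (3823 in ON-BC, 277.4 in OFF-BC) and *Lmo3* (217.0 and 7.06) were higher in ON-BC, and *Lmo1* (13.8 and 254.5) and *Lmo2* (20.3 and 124.6) were higher in OFF-BC. *Lmo1* was highest in rods, at 739.2, against 17.7 in blue cones. The LIM-binding genes *Ldb1* (603.6 for pan-BC, 65.7 for rods) and *Ldb2* (2767 and 14.4) were higher in pan-BC, with means of 605.3 and 2494 for ON-BC and 563.4 and 2431 for OFF-BC.

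The ETO-family corepressors also divided the classes. *Cbfa2t3* (1687 in pan-BC, 6.94 in rods) and *Runx1t1* (8073 and 82) were higher in pan-BC, while *Cbfa2t2* was lower (728.6 and 6362; -3.12 ± 0.18, limma adjusted p = 1.18e-08). *Prdm8*, whose product forms a repressor complex with BHLHE22, had a mean of 868.0 in ON-BC and 125.3 in OFF-BC (2.84 ± 0.19, limma adjusted p = 2.52e-06), the opposite polarity to *Bhlhe22* itself. *Ep300*, a histone acetyltransferase gene, was higher in pan-BC than in blue cones (533.4 and 191.8, limma adjusted p = 0.0219).

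Across the 15 libraries, members followed one another to different degrees. These correlations are a description, since libraries of a population share their origin and sort. *Bhlhe23* and *Tcf4* had a Pearson r of 0.996, *Bhlhe23* and *Neurod2* 0.99, and *Neurod1* and *Neurod4* -0.96. Genes most like *Neurod4* included *Fgf12* and *Nfatc2* (r = 0.998 each), those most like *Neurod1* were *Gpkow*, *Dhx30* and *Abcf3* (0.993 to 0.996), and those most like *Neurod2* were *B3gat1*, *Cttnbp2* and *Adamts5* (0.992 to 0.994). For *Bhlhe23* they included *Tcf4* and *Cacna2d3* (0.996 each), for *Bhlhe22* *Efnb3*, *Lancl3* and *Efs* (0.981 to 0.982) and for *Tcf4* *Plcd1*, *Grip2* and *Bhlhe23* (0.996 to 0.997). *Tcf12* (*Nrip1*, *Camta1* and *Dpy19l1*, 0.870 to 0.901) and *Tcf3* (*Hira*, *Esyt3* and *Fbxo10*, 0.861 to 0.883) had no gene as close.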

How the data were processed

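The 9 genes and the gene and marker lists were chosen with earlier results of these data known. Reads were 50 bases long. For RNA-seq the authors aligned reads with STAR (2.7.0d) to GRCm38 and took counts per RefSeq gene from HTSeq (1.9). ATAC-seq reads were aligned by Bowtie2 to the same build. The authors removed duplicates with Picard (2.19.0), kept fragments of at most 150 bases and ran MACS2 (2.1.1) on every library to call peaks. Whether strand was used in counting is not given in the sources used here. The versions of Bowtie2 and SAMtools differ between the submitters' processing notes (2.2.5 and 1.3) and the paper. No Tn5 offset is given in the sources used here. The deposited values, of signal type, are read counts that the authors divided by a size factor for each library. The deposited peak files hold the fold enrichment and the -log10 q-value that MACS2 gave the authors for each peak.

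Values above 0 (230384 for RNA-seq, 1212862 for ATAC-seq) were 100.0% whole multiples of the value of 1 read, within 0.01 read, so reads were recovered. Genes and regions with few reads were removed with filterByExpr of edgeR (4.0.16), which left 14024 genes and 108448 regions. limma (3.58.1, R 4.3.3) was fitted to log2(value + 1) over all 15 RNA-seq or all 12 ATAC-seq libraries, with a trended prior, and each log2 difference was tested against a threshold of 1 (treat) with Benjamini-Hochberg adjustment over all features at 0.05. The test was tried on simulated data. Calls were repeated on recovered reads with edgeR and DESeq2 (1.42.0), and with other scalings, pseudocounts, filters and samples. Genes of the lists are named where they differed in at least 1 of the 4 comparisons and reached a mean of 100 in a population, with *Bhlhe41* added beside *Bhlhe40*. For each gene tested, the 3 genes with the highest Pearson correlation over 15 libraries are named, apart from some that are not reported here. Regions are the authors' 201-base regions, given to the nearest start site; those named are promoter regions and those that differed most in a comparison, with a few others singled out after their values were seen. Sequences come from RefSeq and GRCm38.p6, and coordinates are 1-based. Intervals and floors cover counting error only. Where nothing states separate mice, p-values measure only the spread between these samples. Same-numbered ON-BC and OFF-BC libraries share a labelled postnatal day (42, 43 or 48 for RNA-seq, 42 or 46 for ATAC-seq) and genotype. Same-numbered libraries were not treated as pairs, since no source ties them to the same mice and their deviations correlated between -0.22 and 0.36 (RNA-seq).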

Additional observations from a re-analysis of the deposited data

How the results depend on the processing

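The counts of bHLH genes that differed in RNA were unchanged from 6, 6, 3 and 1 (pan-BC with rods, pan-BC with blue cones, ON-BC with OFF-BC, rods with blue cones) with edgeR, DESeq2, the other scalings, pseudocounts and filter, and without each replicate. The exceptions were 5 for ON-BC with OFF-BC and 7 for pan-BC with blue cones, where *Tcf3* joined, tested against no change, and 0 for rods with blue cones when fitted alone, where *Neurod4* stayed at -1.81 with an adjusted p of 0.157. Of all genes tested, edgeR called 6728, 5777, 1226 and 2739 on recovered reads, where limma called 6112, 5092, 919 and 2231. Small differences turned direction. Scaled to library totals, *Tcf12* was 0.19 (pan-BC minus rods), 0.17 (pan-BC minus blue cones) and -0.02 (rods minus blue cones), and *Tcf4* was -0.01 (rods minus blue cones). Without 1 replicate, *Neurod1* lay between -0.24 and 0 for ON-BC minus OFF-BC, and for rods minus blue cones *Tcf4* lay between -0.03 and 0.16 and *Tcf12* between -0.04 and 0.09, including -0.02 without rod replicate 3. The cause was not tested. The order of populations for each gene, with scalings added after the data had been seen, differed against no change in 11 of 32 neighbouring pairs under each scaling.

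For regions, 58, 38, 6 and 9 differed. Only regions within 10000 bases of a start site gave 17, 13, 2 and 2, as fewer regions were counted. Against no change, pan-BC with blue cones gave 58, ON-BC with OFF-BC 20 and rods with blue cones 32. With edgeR ON-BC with OFF-BC gave 14 and rods with blue cones 18, with DESeq2 rods with blue cones gave 5, and with a pseudocount of 5 these comparisons gave 12 and 3. Without 1 replicate the ranges were 48 to 49, 30 to 34, 3 to 5 and 4 to 6, with 3 without OFF-BC replicate 1, 4 without rod replicate 1 or blue cone replicate 2, and 5 without rod replicate 2. There were 2 libraries per population, and the part of depth in these counts was not tested.

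With the replicate number as a replicate block, counts were 6, 6, 3 and 1 for RNA and 58, 38, 7 and 7 for regions. Same-numbered ON-BC and OFF-BC libraries had correlations of -0.15, 0.36 and -0.19 in RNA and -0.28 in ATAC-seq. These libraries also share the labelled genotype and postnatal day, but no source ties them to the same mice or day of sorting.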
